A study of Mus musculus with 3 samples.

Results

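The 33 genes described here encode the contractile apparatus of striated muscle. They were taken by symbol out of the 51923 genes of a single-cell count matrix from early mouse embryos. They cover the giant protein titin (Ttn) with the thick filament and M-band partners Mybpc3 and Myom1, the myosin heavy chains Myh6 and Myh7, and the myosin light chains Myl1, Myl2, Myl3, Myl4 and Myl7. The thin filament is covered by the striated muscle actins Actc1 and Acta1 and by Tnnt2, Tnnt1, Tnni1, Tnni3, Tnnc1 and Tpm1. The Z-disc genes are Actn2, Tcap, Ldb3, Nebl, Pdlim3, Pdlim5, Csrp3, Xirp1 and Myoz2. Assembly factors and chaperones (Smyd1, Unc45b, Lmod2, Cryab), the intermediate filament gene Des and the stretch-responsive gene Ankrd1 complete the set.

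All embryos were of the C57BL/6 background and carried Mesp1-Cre, which is active in early mesoderm, and the Ai9 reporter, which turns red fluorescent after Cre recombination. Controls were Wls fl/+ and mutants Wls fl/fl, so both genotypes underwent recombination and the controls keep 1 unfloxed Wls allele in the recombined cells. Wls encodes the carrier that Wnt proteins need for secretion. Red fluorescent cells were sorted to enrich descendants of Mesp1-expressing mesoderm, but UMIs of neural and endoderm markers were also found. Each sample had been tagged with a lipid-anchored MULTI-seq barcode before pooling. The 14777 cells fell into 22 barcode samples, 12 control and 10 mutant, in 3 sequencing runs. At E8.0 there were 3 control and 3 mutant samples, all in run 1. At E8.5 there were 2 control samples, 1 of them with 34 cells, and 1 mutant sample, all in run 2. At E9.5 there were 6 samples of each genotype over the 3 runs, with only 6 cells in 1 of the controls, and 1 control of 28 cells carried the label E7.5. The control of 6 cells entered the fits over all cells and the range of Wls but not the printed CPM values and ranges of the 33 genes or the shares, which took samples of at least 20 cells. Whether a barcode stands for 1 embryo is not stated in the sources used here, so each p-value below measures only the spread between barcode samples, which may be technical.

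Sarcomeres are the repeating units in which myosin thick filaments pull on actin thin filaments. Calcium binding to the troponin complex on tropomyosin releases the block on the actin filament, Z-discs anchor the thin filaments, and titin spans from the Z-disc to the M-band. In the mouse the first sarcomeres form in the cardiac crescent, and several components are made as isoform pairs whose balance shifts with age and chamber, such as the alpha and beta myosin heavy chains (Myh6, Myh7) and the atrial and ventricular regulatory light chains (Myl7, Myl2). The promoters of many of these genes are known targets of serum response factor, which binds the CArG box, of MEF2 and of TEAD factors.

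Promoter sequences were read from RefSeq (mouse build GRCm38.p6), which gave a window of 300 bases, 250 before and 50 after the start site, for 30 of the 33 genes; Tcap, Xirp1 and Cryab had none. The 150 bases before the start are printed for 6 of them, with matches to 5 motifs in capitals. These 6, each with a match, were picked by hand and are not representative: 4 of them hold a CArG box, and Ankrd1 did not pass the stage test below, while Myl2, Tnni3 and Lmod2, with larger stage changes, are not shown. The motifs, searched on both strands, were the CArG box, the MEF2 site, the TATA box core TATAAA, the core bound by TEAD factors, which is CATTCC, and a GATA factor site, searched as AGATAA. The CArG box and the MEF2 site both have an AT-rich core and may overlap a TATAAA match. Myl3 (chr9:110763528-110763677, plus strand) and Myl7 (chr11:5898783-5898932, minus strand) encode light chains. Actc1 (chr2:114052876-114053025, minus strand) and Acta1 (chr8:123894776-123894925, minus strand) encode the 2 sarcomeric actins. Ankrd1 (chr19:36119845-36119994, minus strand) encodes a stretch-responsive nuclear and Z-disc protein, and Myoz2 (chr3:123034988-123035137, minus strand) a calcineurin-binding Z-disc protein.
Myl3: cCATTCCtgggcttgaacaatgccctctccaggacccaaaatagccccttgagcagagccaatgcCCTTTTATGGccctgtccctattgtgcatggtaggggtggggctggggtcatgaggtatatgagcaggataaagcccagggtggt
Myl7: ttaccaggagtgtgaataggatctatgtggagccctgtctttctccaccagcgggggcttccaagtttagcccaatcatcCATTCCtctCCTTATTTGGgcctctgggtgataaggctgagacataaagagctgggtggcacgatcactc
Actc1: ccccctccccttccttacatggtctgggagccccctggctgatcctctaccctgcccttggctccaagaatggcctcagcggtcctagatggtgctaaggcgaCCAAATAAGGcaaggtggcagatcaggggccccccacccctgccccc
Acta1: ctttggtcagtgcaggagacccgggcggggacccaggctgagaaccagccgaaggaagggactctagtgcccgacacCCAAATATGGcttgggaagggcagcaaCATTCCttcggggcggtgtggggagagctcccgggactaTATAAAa
Ankrd1: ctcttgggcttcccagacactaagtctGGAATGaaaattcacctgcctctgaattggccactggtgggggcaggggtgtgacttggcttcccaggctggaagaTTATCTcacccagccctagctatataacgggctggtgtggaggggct
Myoz2: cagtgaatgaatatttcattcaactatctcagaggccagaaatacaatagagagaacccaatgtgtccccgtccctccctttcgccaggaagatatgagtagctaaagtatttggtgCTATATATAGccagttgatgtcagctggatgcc
Myl3, Myl7, Actc1 and Acta1 each showed 1 CArG box in capitals, Ankrd1 showed CATTCC and AGATAA on the opposite strand, and Myoz2 showed 1 MEF2 site. Over the 300-base windows, a CArG box was found for 7 of 30 genes (23.3%; Acta1, Actc1, Ldb3, Myl3, Myl7, Myom1 and Nebl), against 1.81% of the 27025 genes with a window. The core CATTCC was found for 13 of 30 (43.3%, against 16.6%), TATAAA for 8 (26.7%, against 15.7%), AGATAA for 5 (16.7%, against 12.7%) and the MEF2 site for 3 (10%, against 3.70%; Mybpc3, Myoz2 and Ttn). A match is a run of letters and was not tested as a binding site.

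Cells with at least 5 Tnnt2 unique molecular identifiers (UMIs, each a counted transcript molecule) per 10000 were treated as the Tnnt2-gated cells. There were 1092 of them, 7.39% of all cells, with a median of 66 Tnnt2 UMIs. Tnnt2 encodes cardiac troponin T. All 8 cardiomyocyte markers were higher inside the gate than outside, from 5.41-fold for Atp2a2, the sarcoplasmic calcium pump, to 503-fold for Nppa, the atrial peptide, with 57.1-fold for the transcription factor gene Nkx2-5. These ratios have no test, because the gate chose the cells. The edge of the gate was gradual: the 74 cells at 4 to 5 Tnnt2 UMIs per 10000 held 1297 Myl7 and 167 Ttn UMIs per 1000000 (CPM), and the 53 cells at 5 to 6 held 917 and 322. Wls lay at 35.9 to 65.4 CPM in the 11 controls of E8.0 to E9.5, that of 6 cells included, and at 3.72 to 14.2 CPM in the 10 mutants. Cell depth ran from 895 to 102853 UMIs (median 21739), and 13 gated cells had fewer than 2000. There were 23 droplet sequences present in more than 1 run. Scrublet called 77 doublets (0.521%), 7 of them in the gate, and they were kept.

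The gated cells held 6.79% of all UMIs and 82.7% of the UMIs of the 33 genes. For 20 genes over 90% of the UMIs lay in gated cells, for 11 between 50% and 90%, and for 2 under 50%. The highest shares belonged to the alpha heavy chain Myh6 (97.0%), the ventricular and slow muscle light chain Myl3 (96.8%), Lmod2 (96.5%), which encodes an actin filament nucleator, and Acta1 (96.1%). Titin lay at 95.8%, the cardiac actin gene Actc1 at 94.3% and Myl7 at 91.9%. The lowest shares belonged to Tnni1 (slow troponin I) at 72.5%, Des at 57.1%, Tpm1 (alpha tropomyosin) at 52.2%, Tnnt1 (slow troponin T) at 50.7%, and the PDZ and LIM domain genes Pdlim5 and Pdlim3 at 49.3% and 42.1%. Tnnt2 itself, which set the gate, lay at 92.6%.

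**Figure D1:**
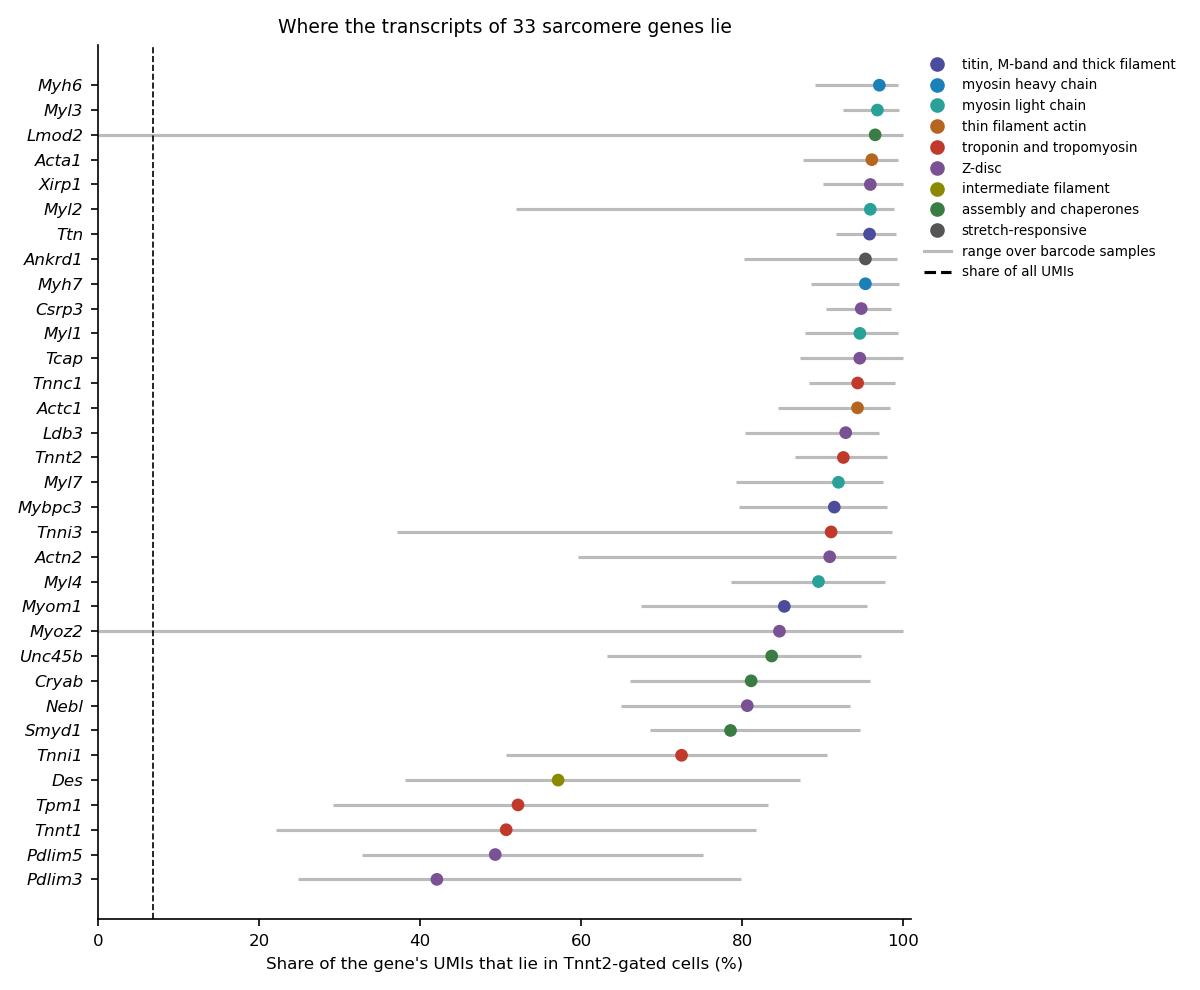
Share of each gene's UMIs that lay in Tnnt2-gated cells (x axis, percent), pooled over all cells as a coloured point by role, with the range over the 18 barcode samples with at least 20 gated cells as a grey line; the dashed line is the 6.79% of all UMIs in gated cells. The points run from 42.1% for Pdlim3 to 97.0% for Myh6, and the lines for Lmod2 and Myoz2 reach 0 where a sample held few or no UMIs of the gene.

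The lowest sample was the same for several genes. In the E8.0 control Bar24, 68 of 131 Myl2 UMIs (51.9%), 74 of 199 Tnni3 UMIs (37.2%) and 34 of 57 Actn2 UMIs (59.6%) lay in gated cells. Outside the gate Tnni3, cardiac troponin I, stood at 12.1, 8.11 and 4.68 CPM in the 3 E8.0 controls and at 3.57, 3.46 and 3.40 CPM in the 3 E8.0 mutants.

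To compare shares of cells with a UMI at 1 depth, each cell was thinned to 5000 UMIs, which left out 447 of all cells and 50 of the gated cells. Globin-high cells (at least 200 globin UMIs per 10000), which as red blood cell precursors should lack sarcomeres, served as a comparison level. Whether UMIs of these genes in them were free RNA or made by the cells was not tested. Median depths were 20854 UMIs in gated, 27848 in globin-high ungated and 20987 in other ungated cells. Titin UMIs were found in 92.1% of gated, 1.17% of globin-high and 4.95% of other cells. Myl7 was found in 97.7%, 8.80% and 20.6%, and Actc1 in 94.2%, 7.90% and 14.6%. Tpm1 was the widest, with 99.5%, 33.4% and 78.7%, and was the gene most often found in ungated cells. Myl2, the ventricular light chain, was found in 45.0% of gated cells, Acta1 in 51.3% and Myoz2 in 1.73%, against 1.80%, 0.988% and 0% of globin-high cells. Among other ungated cells Des reached 14.5% and Tnni1 18.3%, against 2.02% and 5.93% of globin-high cells, whereas Tnni3 (1.27% against 2.34%) and Mybpc3 (0.696% against 1.44%) did not exceed the globin-high level.

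Within gated cells most of the contractile genes were higher at E9.5 than at E8.0. The fit compared 10 E9.5 with 6 E8.0 barcode samples that had at least 20 gated cells. The model also held the E8.5 control Bar3 and the E8.5 mutant Bar1, as a stage of their own. Tnnt2 was left out of the fit because it set the gate. Of 32 genes tested, 28 rose and 0 fell at an adjusted p under 0.05 (edgeR quasi-likelihood test, Benjamini-Hochberg over all genes), where 14.3% of the 10841 genes tested rose and 9.74% fell. Myoz2, with 2 UMIs at E8.0, passed the filter on low counts only through E9.5, where it is high, so its place among the 28 is no support. The median change of the 32 was 0.94 on the log2 scale, against -0.00 over all genes tested. For 14 of the 32 the lowest E9.5 sample lay above the highest E8.0 sample, against 2.32% of all genes tested: Myh7, Myl1, Myl2, Myl3, Myl4, Tnni3, Tnnc1, Actc1, Acta1, Actn2, Mybpc3, Pdlim3, Csrp3 and Des. Because all E8.0 samples lay in run 1, the fit was repeated with run as a further term and in run 1 alone. Both gave 25 of the same 28 genes, with medians of 0.76 and 0.77. These fits called 2290 of all 11690 and 2092 of all 10525 genes in either direction.

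**Figure D2:**
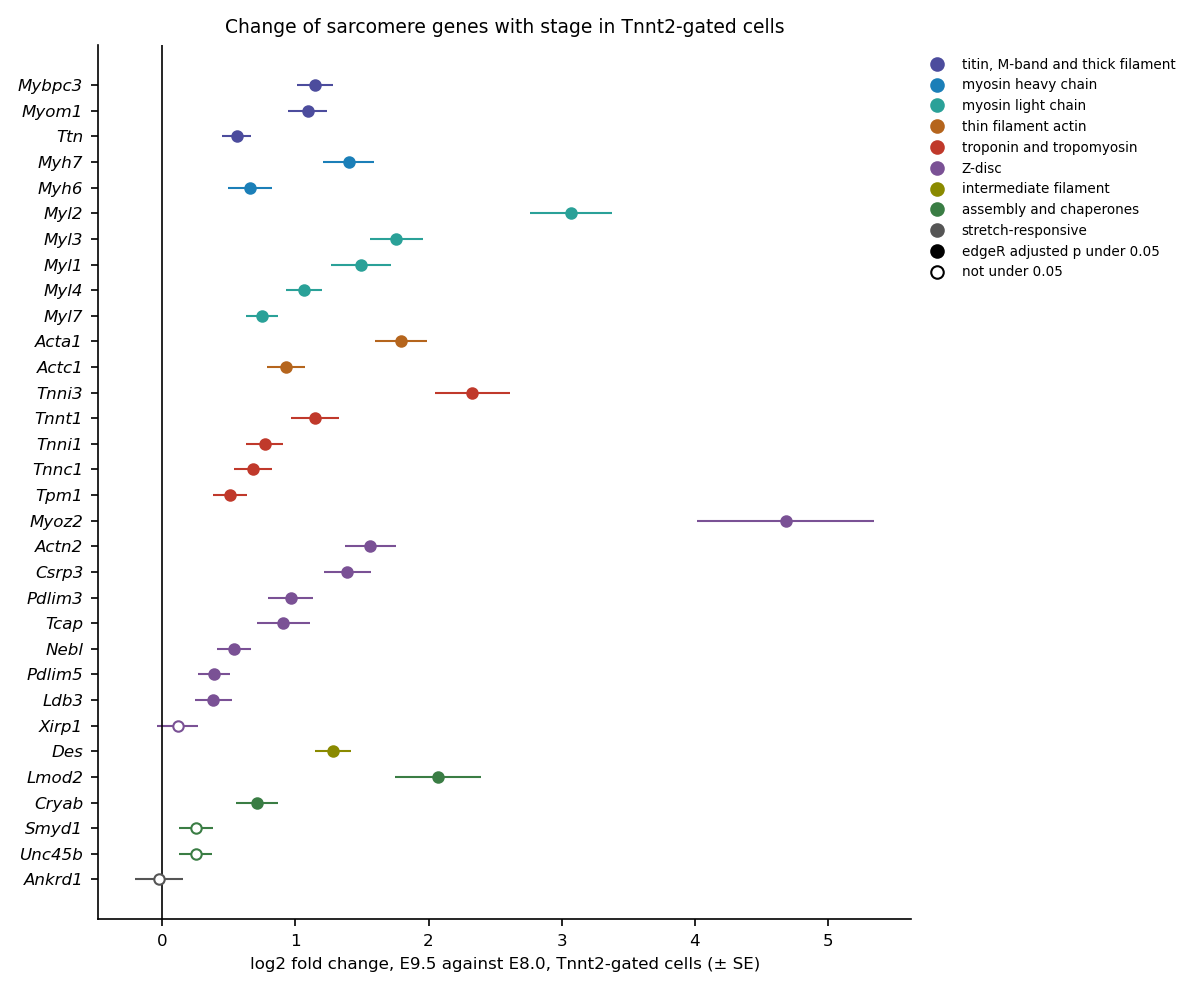
Log2 fold change of each gene in Tnnt2-gated cells at E9.5 against E8.0 (x axis, point with standard error), ordered by role; filled points had an edgeR adjusted p under 0.05. The 28 filled points run from 0.38 for Ldb3 to 4.68 for Myoz2, which rests on 2 UMIs at E8.0, and the open points are Xirp1, Smyd1, Unc45b and Ankrd1.

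All 5 light chain genes rose. Myl2 lay between 84.0 and 457 CPM at E8.0 (median 298, 6 samples) and between 878 and 3283 CPM at E9.5 (median 2209, 10 samples). The groups did not overlap, and the log2 fold change was 3.07 (SE 0.31, edgeR adjusted p = 3.32e-07). Myl3 went from 641 to 1390 CPM (median 1108) at E8.0 to 1759 to 5003 CPM (median 3260) at E9.5, with no overlap. Its log2 fold change was 1.76 (SE 0.20, edgeR adjusted p = 1.13e-06). The atrial and embryonic essential light chain Myl4 rose by 1.06 on the log2 scale and Myl1, the fast and embryonic essential light chain, by 1.49. Myl7, the atrial regulatory light chain, had the smallest change of the 5, 0.75 (SE 0.12), from 6874 to 11208 CPM (median 9626) to 11051 to 19148 CPM (median 14712), and its groups overlapped.

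Both heavy chain genes and all 3 of titin, Mybpc3 and Myom1 rose. Myh7, the beta heavy chain, lay between 268 and 857 CPM at E8.0 (median 647) and between 884 and 2506 CPM at E9.5 (median 1359), which did not overlap. Its log2 fold change was 1.40 (SE 0.19, edgeR adjusted p = 1e-05). Myh6 changed less, by 0.66 (SE 0.17), and the range of 384 to 916 CPM at E8.0 overlapped 523 to 1041 CPM at E9.5. The 2 genes are neighbours on chromosome 14 (Myh6 at 54941921 to 54966927 and Myh7 at 54970684 to 54994626 of GRCm38, both on the minus strand) and are nearly identical over long stretches, as are Acta1 and Actc1. The authors' counting could divide reads between such copies, so the levels of these 4 genes are uncertain. Mybpc3, cardiac myosin-binding protein C, rose by 1.15 and Myom1, the M-band protein myomesin, by 1.09. Titin lay between 1783 and 3767 CPM at E8.0 (median 3442) and between 3452 and 5278 CPM at E9.5 (median 4230), which overlapped, and rose by 0.56 (SE 0.11, edgeR adjusted p = 0.000525).

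Thin filament genes rose together, with different sizes. Tnni3 lay between 64.3 and 278 CPM at E8.0 (median 163) and between 465 and 1423 CPM at E9.5 (median 721). No E9.5 sample was as low as the highest E8.0 sample, and the log2 fold change was 2.33 (SE 0.28, edgeR adjusted p = 2.72e-06). Tnni1, the slow skeletal form that embryonic heart uses first, rose by 0.77. The actin gene Acta1 went from 253 to 571 CPM (median 443) to 712 to 2462 CPM (median 1285), without overlap, a change of 1.79 (SE 0.19, edgeR adjusted p = 8.04e-07). Actc1 rose by 0.93, from 4042 to 8721 CPM (median 6729) to 8942 to 13656 CPM (median 10855). Tnnt1 rose by 1.15, Tnnc1, troponin C of cardiac and slow muscle, by 0.68 and Tpm1 by 0.51.

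Of the 9 Z-disc genes 8 were called higher, Myoz2 among them. Actn2, which encodes alpha-actinin, lay between 42.0 and 171 CPM at E8.0 (median 119) and between 223 and 425 CPM at E9.5 (median 298), without overlap, and rose by 1.56. Csrp3, muscle LIM protein, rose by 1.39, Pdlim3 by 0.96, Tcap (telethonin) by 0.91, Nebl (nebulette) by 0.54, Pdlim5 by 0.39 (edgeR adjusted p = 0.0226) and Ldb3 by 0.38 (edgeR adjusted p = 0.047). Ldb3 lost its call in 13 of 18 fits with 1 sample left out (0.29 to 0.53), those without Bar1, Bar3, Bar4, Bar7, Bar9, Bar10, Bar19, Bar20, Bar22, Bar24, Bar25, Bar28 or Bar29, and Pdlim5 in 3 (0.31 to 0.49), those without Bar24, Bar25 or Bar29. Myoz2 is given by its counts, since it passed the filter only through E9.5. Its gated total was 2 UMIs at E8.0 and 71 UMIs at E9.5, a ratio of 36.9 with an exact 95% interval of 9.83 to 310 that covers counting error only.

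4 of the 32 tested genes did not pass. Ankrd1 lay between 1003 and 2158 CPM at E8.0 (median 1925) and between 1090 and 2460 CPM at E9.5 (median 1411), a log2 fold change of -0.03 (SE 0.18, edgeR adjusted p = 0.947). Xirp1, which encodes an actin-binding Xin repeat protein, gave 0.11 (edgeR adjusted p = 0.632). Smyd1, a muscle methyltransferase, and Unc45b, a myosin chaperone, each gave 0.25 (edgeR adjusted p = 0.161 for both). The other assembly genes and Des passed: Lmod2 rose by 2.07, from 0 to 27.8 CPM to 27.5 to 90.4 CPM, Cryab, a small heat shock protein, by 0.71, and Des (desmin) by 1.28. With a gate of 20 Tnnt2 UMIs per 10000, 23 genes rose and Ankrd1 was called lower, at -0.54 (edgeR adjusted p = 0.0343), while Ttn, Myh6, Pdlim5, Ldb3 and Tpm1 were no longer called. That fit called 1759 of all 10116 genes in either direction.

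Cells also showed more of the 33 genes at the same depth. Gated cells thinned to 5000 UMIs had 17.0 ± 0.807 of the 33 genes in E8.0 controls and 18.9 ± 0.334 in E8.0 mutants (SD over 3 samples each), 21.7 ± 1.65 in E9.5 controls and 22.0 ± 1.83 in E9.5 mutants (SD over 5 samples each). The E8.5 samples had 18.4 in the control and 20.4 in the mutant.

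Other genes of the same apparatus showed the same direction in this comparison. Of 32 tested among 40 other sarcomere genes, 24 rose and 0 fell, among them Lmod3 (2.41), Klhl41 (1.96) and Tnnc2 (1.90), all on the log2 scale. Klhl41, Tnnc2 and Myh7b did not pass the filter on low counts in the E8.0 samples alone, so their calls are no support. Of 14 calcium handling genes tested, 11 rose and 1 fell. The sarcoplasmic calcium pump regulators Sln and Pln, at 3.81 and 2.87, likewise did not pass it in those samples alone. Of 14 non-muscle paralogs of the contractile genes 2 rose, a share equal to the 14.3% of all genes tested, and 4 fell, among them Tpm4 (-0.86), Myl12b (-0.71) and Actb (-0.69). Of 16 cardiac transcription factor genes 3 rose, near that background, and 5 fell, with Hand1 at -1.37 and Tbx5 at -0.69, where 9.74% of all genes fell.

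Markers of other cell types moved with stage inside the gate. All 6 erythroid markers tested rose, with summed levels of 1325 to 1528 CPM at E8.0 and 1489 to 14951 CPM at E9.5. Among skeletal muscle markers, Myf5, Myod1 and Myf6 were at 0 UMIs in all 6 E8.0 samples and Myog had 1 UMI, whereas at E9.5 Myog had 278 UMIs, reached 77.7 CPM and was at 0 in 6 of 10 samples. Without the 8 gated cells that held a UMI of Myf5, Myod1, Myog or Myf6, 28 of 32 genes were called higher. That fit called 2577 of all 10833 genes in either direction. Skeletal muscle cells in which these transcripts were missed would remain in it, so it does not test their part. Of 6 smooth muscle genes tested, 3 rose (Tagln, Acta2 and Cnn1), with a list median of 0.74. Of 4 proepicardial markers Tbx18 and Wt1 were called higher, each at 2.05. Of 4 neural markers Nes (1.97) and Sox3 (1.47) were called higher and Tubb3 fell. Tbx18, Wt1 and Sox3 did not pass the filter on low counts in E8.0 samples alone. The part of globin RNA and of these other cell types in the result was not tested.

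In sums over all cells the stage difference was small. The model for it also held the E8.5 samples, 2 control and 1 mutant, as a stage of their own. Of 32 genes tested, 4 rose and 0 fell (Myl2 2.46, Tnni3 1.64, Lmod2 1.57 and Des 0.89 on the log2 scale), where 12.5% of the 18063 genes tested rose and 10.0% fell. None of the 32 had groups that did not overlap, against 0.803% of all genes tested with E9.5 higher and 3.34% with E9.5 lower. Without any single E8.0 sample, or without Bar7, Bar8, Bar9 or Bar10, the count was 1 or 2, and the calls over all genes in those fits are not given here. The difference in the share of gated cells, E9.5 minus E8.0, was -3.89 percentage points (exact stratified permutation test, two-sided p = 0.0699, smallest possible 0.000213; 17 samples). In sums over all cells, fewer cells of a type and less RNA per cell cannot be told apart. With run as a further term, 1 gene rose and 6 fell, where 3877 of all 18063 genes were called, a share close to that of the 32, and the median of the 32 turned from 0.40 to -0.31. In run 1 alone 2 rose and 11 fell, where 5222 of 17577 genes were called, with a median of -0.30, and the difference in the gated share was -6.89 points (exact permutation p = 0.01). All 7 erythroid markers rose in all cells, with summed levels of 5308 to 39541 CPM at E8.0 and 38579 to 236276 CPM at E9.5, and their part in these values was not tested.

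Isoform balance within gated cells was followed as the ratio of summed UMIs of 2 genes in each sample, which does not depend on genes outside the pair. The authors' counting could divide reads between Acta1 and Actc1 and between Myh6 and Myh7, so the ratios of these pairs are uncertain. Counts were of transcript ends, so they were not divided by length. All 5 ratios were higher at E9.5 than at E8.0, by exact permutation tests stratified by genotype over 16 samples, with Benjamini-Hochberg adjustment over the 10 tests made for stage and genotype. Myl2/Myl7 lay between 0.0107 and 0.0441 at E8.0 and between 0.0710 and 0.217 at E9.5, a mean log2 difference of 2.52 (exact p = 0.000319, the smallest these permutations can give; adjusted p = 0.00106). Tnni3/Tnni1 lay between 0.0565 and 0.171 and then between 0.210 and 0.421, a difference of 1.65 with the same exact p. Acta1/Actc1 was tight at E8.0, between 0.0626 and 0.0692 in all 6 samples, and lay between 0.0796 and 0.180 at E9.5, a difference of 0.85 with the same exact p. For these 3 pairs the stages did not overlap. Myl3/Myl4 overlapped between stages, at 0.239 to 0.341 and 0.300 to 0.638, with a difference of 0.69 (exact p = 0.00223, adjusted p = 0.00558). Myh7/Myh6 overlapped too, at 0.624 to 1.44 and 1.01 to 3.50, with a difference of 0.78 (exact p = 0.0131, adjusted p = 0.0261).

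**Figure D3:**
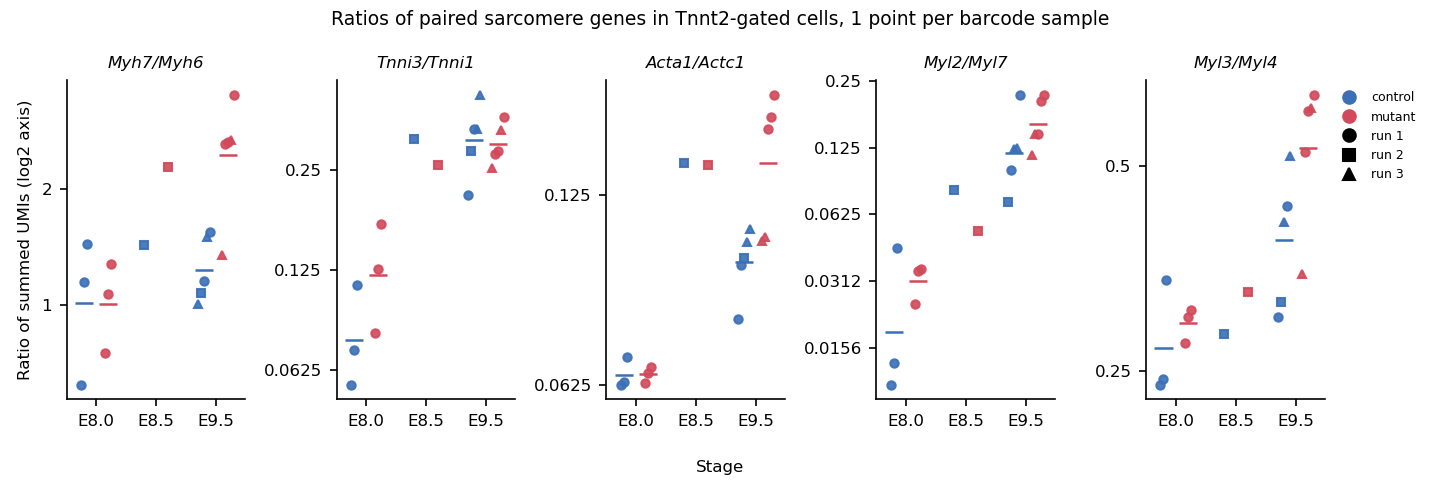
Ratio of the summed UMIs of 5 gene pairs in Tnnt2-gated cells (y axis, log2 scale) by stage, with 1 point per barcode sample, controls in blue, mutants in red, marker shape by sequencing run and lines at the geometric mean of each group. Myl2/Myl7, Tnni3/Tnni1 and Acta1/Actc1 do not overlap between E8.0 and E9.5, and the Acta1/Actc1 points at E8.0 lie between 0.0626 and 0.0692. The Acta1/Actc1 and Myh7/Myh6 ratios are uncertain, because reads could be divided between such near-identical genes.

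Acta1/Actc1 at E8.5 was 0.140 in both the control and the mutant. The control lay above the E9.5 control range of 0.0796 to 0.111, and the mutant lay within the E9.5 mutant range of 0.106 to 0.180, while Myl2/Myl7 was 0.0806 in the control and 0.0528 in the mutant. The Myl3/Myl4 ratios of 0.284 and 0.327 lay within the E8.0 range. E8.5 has 1 sample per genotype here and lies in run 2 alone, so stage and run cannot be told apart for it.

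No ratio differed between genotypes after adjustment. Myh7/Myh6 came nearest, with 1.26 ± 0.249 (SD, n = 5) in E9.5 controls and 2.56 ± 0.771 (SD, n = 5) in E9.5 mutants, against 1.07 ± 0.415 and 1.04 ± 0.266 (SD, n = 3 each) at E8.0. Over all stages its log2 difference was 0.55 (exact permutation p = 0.0421, adjusted p = 0.0701; 18 samples). Acta1/Actc1 gave 0.26 (exact p = 0.0567, adjusted p = 0.0810), Myl3/Myl4 0.26 (exact p = 0.0908), Myl2/Myl7 0.31 (exact p = 0.295) and Tnni3/Tnni1 0.17 (exact p = 0.427). Without Bar26, an E8.0 control, 3 of the 5 genotype ratios passed, and without Bar8, Bar28 or Bar29 2, 1 and 1 passed.

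Gated cells made up a larger share of mutant than of control samples over all stages. At E8.0 the controls had 7.90%, 7.65% and 14.6% gated cells and the mutants 16.1%, 12.4% and 12.1%. The E8.5 controls had 2.94% and 4.27%, and the E8.5 mutant 15.4%. At E9.5 controls ranged from 3.84% to 14.0% (7.61% ± 3.95, SD, n = 5) and mutants from 4.11% to 16.1% (8.29% ± 4.65, SD, n = 6), with the highest value of each genotype in run 3. The groups overlapped at E8.0 and E9.5. Weighted over stage and run, the difference was 3.36 percentage points (exact stratified permutation test, two-sided p = 0.0289; 20 samples, smallest possible p 0.000139). Within 1 stage it was 3.49 points at E8.0 (exact p = 0.3, where 3 against 3 allows no p below 0.1) and 1.21 points at E9.5 (exact p = 0.433).

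**Figure D4:**
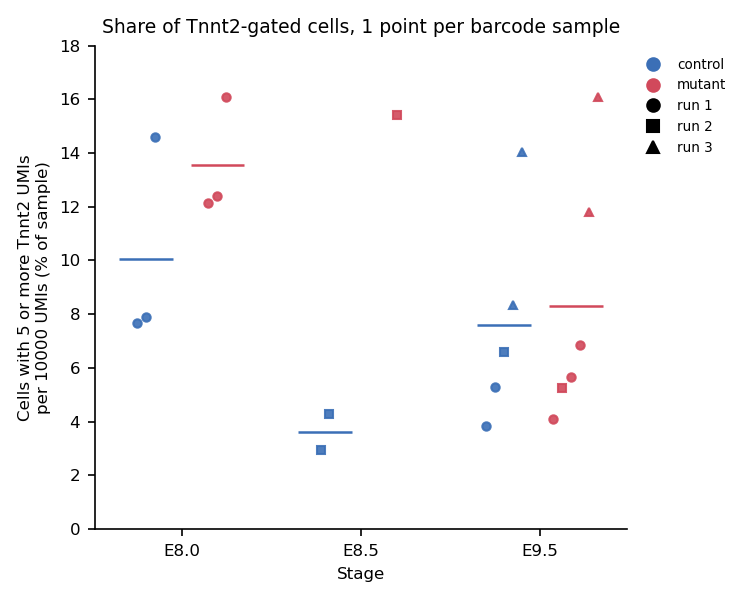
Percentage of cells in the Tnnt2 gate (y axis) by stage, with 1 point per barcode sample, controls in blue, mutants in red, marker shape by sequencing run and lines at group means; the E9.5 control of 6 cells and the sample labelled E7.5 are not drawn. The E8.5 mutant stands at 15.4% above its controls at 2.94% and 4.27%, while at E8.0 and E9.5 the genotypes overlap.

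The pooled difference in share depended on single samples, most of all on the E8.5 mutant. Without that sample, Bar1, the difference was 2.02 points (exact permutation p = 0.13), and it also lost its call without Bar2, Bar3, Bar8, Bar9, Bar24, Bar25 or Bar26, at 2.99 to 3.13 points (exact permutation p = 0.0525 to 0.0648). The call was lost at a gate of 10 too (2.94 points, exact permutation p = 0.0544). It held at gates of 2 and 20 (exact permutation p = 0.00375 and 0.0172). The share of cells with a UMI of a Y-linked gene ran at E8.0 from 90.4% to 93.9% in mutants and from 18.9% to 58.1% in controls. The part of embryo sex in the share was not tested.

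In all cells, some sarcomere genes were called higher in mutants over the stages, and every fitted difference of the 33 genes was positive. Gated cells held 82.7% of the UMIs of these genes. A sample's gated share therefore enters all 33 values at once, and their signs are not separate evidence. More gated cells and more RNA per cell cannot be told apart in these sums. Of 33 tested, 11 rose and 0 fell in mutants (edgeR adjusted p under 0.05, with stage and run as terms), where 4.47% of the 20831 genes tested rose and 5.77% fell. The median difference was 0.69 on the log2 scale, against 0.02 over all genes. The 11 spanned the thick filament (Myh7 1.05, Myl3 1.01, Myl2 0.94), the thin filament (Acta1 1.09, Tnni1 0.65, Tnnt1 0.63, Tpm1 0.49), the Z-disc (Actn2 0.94, Ldb3 0.75, Pdlim5 0.50) and the M-band (Myom1 0.80). Their edgeR adjusted p ranged from 0.00911 for Myom1 to 0.05 for Tnnt1.

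The values by stage are given next, and the test of the difference between stages, which called no gene, follows them. Acta1 stood at 20.7, 38.5 and 36.0 CPM in the E8.0 controls and at 55.8, 69.6 and 64.3 CPM in the E8.0 mutants, which did not overlap. Acta1 in the E8.5 controls stood at 1.15 and 37.3 CPM, and in the E8.5 mutant at 238 CPM. The E9.5 controls had 44.2, 184, 96.8, 50.1 and 30.6 CPM, while the mutants ranged from 15.1 to 256 CPM (median 124), so the groups overlapped. Myh7 stood at 22.0, 61.8 and 62.2 CPM in the E8.0 controls and at 93.4, 92.8 and 87.4 CPM in the E8.0 mutants, and at E9.5 its controls (48.6 to 163 CPM) lay within the range of the mutants (24.8 to 248 CPM). Titin stood at 136, 260 and 345 CPM against 521, 421 and 460 CPM at E8.0, and its adjusted p over the stages missed the threshold.

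For the fits with 1 sample left out, the calls over all genes are not given here. Whether the contractile genes moved alone in those fits was not tested. The count of 11 changed with single samples. It fell to 1 without Bar1, to 2 without Bar23, to 3 without Bar9, to 4 without Bar3, Bar19 or Bar24 and to 6 without Bar20, Bar22 or Bar27, and rose to 19 without Bar4. It was 2 without the E8.5 samples (median 0.39; 1455 of all 20401 genes called), 4 without globin-high cells (0.63; 1956 of 19957) and 3 with the male cell share as a covariate (0.74, where 651 of all 20831 genes were called instead of 2132). It was 0 in run 1, run 2 or run 3 alone, fits that called only 2, 27 and 57 genes in all, so the lost calls there say little. Their medians were 0.60, 1.44 and 0.26, against 0.69. In run 3 alone Tnnt1 and 7 genes not called over all runs had negative differences, of 32 tested. Within stages the counts were 0. At E8.0 edgeR called 0 of 32 genes, where 0.0244% of the 16416 genes tested were called in either direction. There 31 genes had an unadjusted p under 0.05, against 9.84% of all genes, DESeq2 called 13 (all higher in mutants; 45 of all 16416 genes in either direction), and 28 of 32 had mutants above controls without overlap, against 12.5% of all genes tested. The median difference was 0.72. The male cell share at E8.0 ran from 90.4% to 93.9% in mutants and from 18.9% to 58.1% in controls. Genotype and male cell share therefore cannot be told apart in the E8.0 comparisons, in all cells or in gated cells. Leaving out Bar29 gave 1 call. At E9.5 edgeR again called 0 of 32 genes, where 10.3% of the 17227 genes tested were called in either direction. There 3 genes had an unadjusted p under 0.05, against 26.3% of all genes, DESeq2 called 1 (2701 of all 17227 genes), 0 genes had groups that did not overlap (3.13% of all genes did with mutants higher and 0.871% with mutants lower), and the median was 0.29. Leaving out Bar7 or Bar10 gave 1 call. The interaction of genotype with stage, E9.5 less E8.0, was negative in all 32 genes tested (median -0.40) but called for 0 of them by edgeR and 0 by DESeq2, where 0.464% of the 17872 genes tested were called. At an unadjusted p under 0.05 there were 2, against 11.5% of all genes.

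**Figure D5:**
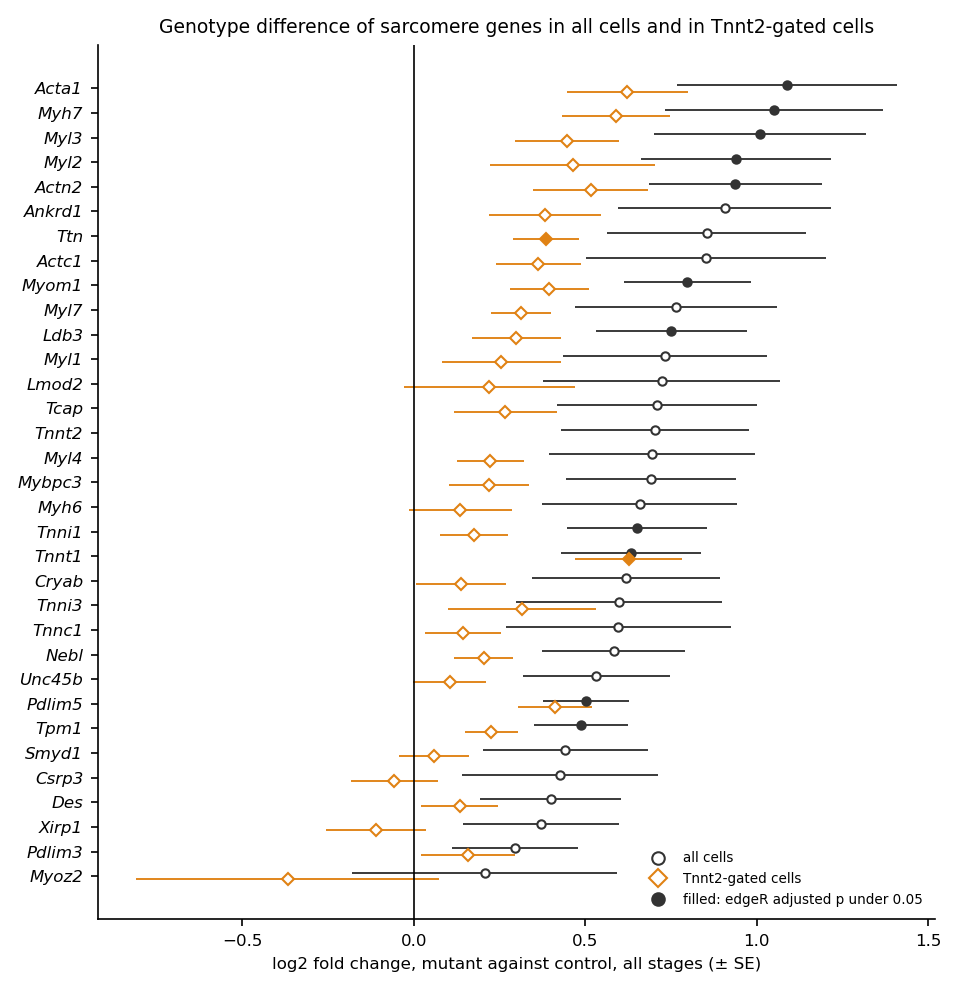
Log2 fold change of the 33 genes in mutants against controls over all stages (x axis, point with standard error), from sums over all cells (circles) and over Tnnt2-gated cells (orange diamonds); filled points had an edgeR adjusted p under 0.05. The circles have a median of 0.69 and the diamonds, without Tnnt2, a median of 0.24.

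Some other muscle genes were also called higher in mutants in all cells, over all stages. Of 37 tested among other sarcomere genes 10 rose, where 4.47% of all genes did, among them Trim63 (0.88), and of 15 calcium handling genes 9 rose, among them Trdn (0.97), Hrc (0.90), Slc8a1 (0.78) and Ryr2 (0.73), the ryanodine receptor gene. Of 16 cardiac factors 4 rose (Tbx20, Gata6, Mef2c and Tbx5) and none fell. Of 14 non-muscle paralogs 4 rose, by at most 0.33 (Vim). Some markers of other cell types moved with genotype as well. Of 7 smooth muscle genes 2 rose (Cnn1 0.70 and Tagln 0.67, list median 0.67). None of the 6 endoderm, 4 proepicardial and 8 endothelial markers was called, but every fitted difference was positive, with list medians of 0.53, 0.48 and 0.32. At E9.5 alone 2 of 4 proepicardial markers rose (Wt1 1.28 and Upk3b 1.27), and the endoderm median was 1.15 with 0 of 6 called. The part of these cell types in the result was not tested. None of the 7 erythroid markers was called, with a median of -0.34, and at E8.0 their summed level was 5391 to 39541 CPM in controls and 5308 to 17783 CPM in mutants.

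Within gated cells the median genotype difference over all stages was below the 0.69 of all cells. The fits took different barcode samples, and the contrast between them was not tested. Over all stages 2 of 32 genes rose in mutants and 0 fell, where 1.17% of the 11690 genes tested rose and 0.205% fell, with a median of 0.24. A gate of 20 lowered that median to 0.12. For E8.0 alone the same gate moved it from 0.38 to 0.15, and for E9.5 alone from 0.13 to 0.04. Titin lay at 1783, 3630 and 2563 CPM in E8.0 controls and at 3393, 3492 and 3767 CPM in E8.0 mutants, which overlapped. At E9.5 its controls had 4097, 4363, 3452, 3677 and 3870 CPM and its mutants 4585, 4481, 5184, 5278 and 3970 CPM, with 4 of 5 mutants above every control. Its log2 fold change was 0.39 (edgeR adjusted p = 0.0471). Tnnt1 lay at 21.0, 47.2 and 42.6 CPM in E8.0 controls and at 76.0, 74.5 and 79.2 CPM in E8.0 mutants without overlap, while at E9.5 controls (76.7 to 170 CPM) and mutants (93.3 to 167 CPM) overlapped. Its log2 fold change was 0.63 (edgeR adjusted p = 0.0456). Neither was called without E8.5, with the male cell share as a covariate or with a gate of 10 or 20. Leaving out 1 sample gave counts from 0 to 9, with 0 without Bar1, Bar3, Bar9, Bar19, Bar20, Bar22, Bar23, Bar24, Bar27, Bar28 or Bar29. The count was 1 without Bar8 or Bar21, 4 without Bar10, 5 without Bar7, 6 without Bar25 and 9 without Bar26. The calls over all genes in these fits are not given here, so whether the contractile genes moved alone was not tested.

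At E8.0 alone edgeR called 0 of 31 genes in gated cells and DESeq2 called 0, where 0.0505% of the 9906 genes tested were called in either direction, with 13 genes at an unadjusted p under 0.05 against 4.41% of all genes. Leaving out Bar26 gave 4 calls, and the calls over all genes in that fit are not given here. With no filter on low counts 14 genes were called higher in mutants, where 128 of all 24000 genes were called. Genotype and male cell share cannot be told apart here either. For 4 genes (Tnnt1, Tnnc1, Tpm1 and Smyd1) the mutants lay above the controls without overlap, against 4.83% of all genes. At E9.5 edgeR called 1 of 32 genes, Myh7, as higher in mutants and 0 as lower, where 2.7% of the 9598 genes tested rose and 1.05% fell. The count is thus near the share of all genes. Myh7 stood at 1118, 1316, 884, 1402 and 1159 CPM in the 5 controls and at 1286, 1402, 2506, 2410 and 1850 CPM in the 5 mutants. The 3 run 1 mutants were the highest, and the 2 run 3 mutants overlapped the controls. The log2 fold change was 0.64 (edgeR adjusted p = 0.0201). In run 1 the male cell share was 88.3%, 19.5% and 85.8% in the mutants and 17.1% and 16.4% in the controls. In run 3 it was 7.74% and 10% in the mutants and 65.2% and 9.08% in the controls. The part of male cell share in this call was not tested. Without Bar9, Bar22 or Bar23 none of the 32 genes was called, and without Bar7, Bar10 or Bar21 the count was 6, 2 and 2. The calls over all genes in these fits are not given here. Gates of 2, 10 and 20 gave 0 (357 of all 10788 genes called), 4 (365 of 9490) and 2 (228 of 9325). Smyd1 had its mutants above its controls at E8.0 (183, 183 and 170 against 119, 130 and 145 CPM) and overlapping but mostly lower mutants at E9.5 (116 to 193 against 170 to 246 CPM). In the same gated E9.5 fit 0 of 32 other sarcomere genes tested were called. Of 14 calcium handling genes 3 were called higher in mutants, Asph (0.72), Camk2d (0.68) and Ryr2 (0.53). Of 16 cardiac transcription factor genes 1 was, Hey2 (1.24), and of 13 non-muscle paralogs 1, the intermediate filament gene Vim (0.61). Of 3 endoderm markers tested, Krt8 (0.90) was called higher. None of 6 erythroid markers was called there, but all were positive, with a median of 0.60, and their part and that of endoderm cells was not tested.

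The Tnnt2 level of the gated cells themselves did not overlap between genotypes at E8.0 and overlapped at E9.5. It is given here as a description, because Tnnt2 chose the cells. At E8.0 genotype and male cell share cannot be told apart. Median Tnnt2 per 10000 UMIs lay between 25.8 and 33.8 in E8.0 controls and between 38.5 and 41.3 in E8.0 mutants, and between 23.2 and 48.1 and between 35.3 and 55.0 at E9.5.

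At E8.5 the large control, Bar3 with 2508 cells, and the mutant, Bar1 with 487, were set side by side without a test, since each genotype has 1 sample of that size. With 0.5 UMIs added to each sum, 32 of 33 genes were at least 1.5-fold higher in the mutant in all cells, where 17.5% of the 18107 genes with at least 20 UMIs were, and the median ratio was 4.53 against 1.11. Titin had 545 CPM (exact Poisson 95% interval 531 to 559) against 104 CPM (102 to 107), and Myl7 had 2337 CPM (2308 to 2367) against 409 CPM (404 to 414). Myoz2 had 4 UMIs in the mutant and 16 in the control, 0.382 against 0.261 CPM with overlapping intervals, and reached the fold only through the added 0.5. These intervals cover counting error only. The gated share was 15.4% in this mutant and 4.27% in this control, and its part in the ratios over all cells was not tested. In gated cells 10 of 31 genes were at least 1.5-fold higher, where 7.22% of 9904 genes were, and the median ratio was 1.37 against 0.954. Titin had 3651 CPM against 2662 CPM there, Myl7 15214 CPM against 9489 CPM, Actc1 11374 CPM against 7115 CPM and Ankrd1 a ratio of 2.02. Myl2 had 803 CPM against 765 CPM and Lmod2 43.2 CPM against 43.6 CPM, and the counting intervals of both overlapped.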

How the data were processed

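Single-cell libraries of sorted, MULTI-seq barcoded cells were made on the 10x Chromium platform, per the labels' protocols. The submitters' processing notes name kallisto, bustools 0.46.1, Cell Ranger and the build GRCm38. The values are whole-number UMI counts per gene and cell, deposited by the authors with the barcode, stage and condition of each cell; how their cells were filtered and whether strand was used is not given in the sources used here. No cell was removed here.

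UMI counts were summed over the cells of each barcode sample, the unit of every test, in all cells and in Tnnt2-gated cells (samples with at least 20 such cells). Sums were tested over all genes with edgeR 4.0.16 (quasi-likelihood, two-sided, filterByExpr, TMM, Benjamini-Hochberg, threshold 0.05) in R 4.3.3. CPM is UMIs per 1000000 of the sample's sum. Shares and ratios of summed UMIs, with 0.5 added to each sum, were tested by exact permutation in Python 3.11.15 (numpy 2.4.6, scipy 1.17.1). Doublets were called with Scrublet in scanpy 1.11.5. The fits were tested on simulated data. Replicates were not pooled across runs, and the 3 runs had 0 per-sample columns without a sample.

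All 33 genes are named. Of other lists the text gives counts and up to 4 genes per comparison, those with the largest change past the threshold; 1 such gene is not reported here. The genes and lists were chosen with earlier results of these data known. Alternatives were DESeq2 1.42.0, its size factors, no filter on low counts, limma 3.58.1 on mean CPM, other gates (2, 10 and 20), run as a term or run 1, 2 or 3 alone, each sample left out, globin-high cells or doublets left out, and the male cell share (cells with a UMI of a Y-linked gene) as a covariate. Gene positions are from GENCODE for GRCm38.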

Additional observations from a re-analysis of the deposited data

Results flagged for a closer look

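Only the E9.5 control and E9.5 mutant groups, of 5 or 6 barcode samples, were examined here, and no E8.0 or E8.5 group was. Of the 144 group values examined, 12 held a sample far from the others of its group by Dixon's criterion. Chance alone meets this criterion in about 1 of 20 groups. Most came from 1 sample, the E9.5 mutant Bar8 in run 3, which had the highest share of gated cells at its stage (16.1%). In its sum over all cells it stood apart with 177 CPM of Myh6 (next sample 64.4), 93.4 CPM of Myl1, 29.9 CPM of Tcap, 208 CPM of Cryab, 162 CPM of Des, 10.7 CPM of Xirp1, 462 CPM of Ankrd1 (next sample 126) and 17.1 CPM of Lmod2. The E9.5 control Bar7, also in run 3 and with a gated share of 14.0%, stood apart with 163 CPM of Myh7 in all cells and with 3826 CPM of Tnnc1 in gated cells, where the next control had 2458 CPM. In gated cells the E9.5 control Bar23 was low for Ldb3 (91.2 CPM, next 107) and the E9.5 mutant Bar10 was low for Xirp1 (21.4 CPM, next 49.4).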

How the results depend on the processing

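The rise of the contractile genes from E8.0 to E9.5 in gated cells was called for 23 to 28 of 32 genes under the other settings and for 26 to 29 with 1 sample left out, and 5 of 5 isoform ratios (4 at a gate of 20) passed. Those other settings called from 1759 of 10116 genes (gate of 20) to 2879 of 27074 (no filter on low counts) in either direction. Counts with 1 sample left out are given without the calls over all genes in the same fits. The genotype counts varied more. Over all stages in all cells 11 genes rose (2132 of all 20831 genes called), against 18 with no filter on low counts (2217 of 35403), 1 with limma on mean CPM (665 of 14994), 4 without globin-high cells (1956 of 19957), 3 with the male share as a covariate (651 of 20831), 2 without E8.5 (1455 of 20401) and 0 without E9.5 or in run 1, 2 or 3 alone, and leaving out 1 sample gave 1 to 19. The 4 fits with 0 called 1, 2, 27 and 57 genes of all tested, so their 0 says little, and the medians of the contractile genes were 1.202, 0.60, 1.44 and 0.26, against 0.69. Tnnt1 turned to -0.078 in run 3 alone, where 7 of the other genes tested, not called over all runs, also turned negative. At E8.0 the count was 13 with DESeq2 (45 of 16416) and 9 with no filter (35 of 31479), with 0 to 1 leaving out samples, and at E9.5 it was 1 (2701 of 17227), 8 (2566 of 33688) and, in run 1 alone, 2 (1283 of 17346), with 0 to 1. The difference between stages gave 5 genes with no filter (669 of 34851), all lower, and 0 in each of the fits without 1 sample. In gated cells over all stages, 2 genes were called (161 of all 11690), against 7 with DESeq2 (282 of 11690), 15 with no filter (459 of 27074), 4 at a gate of 2 (217 of 12891) and 0 at gates of 10 (125 of 11328) and 20 (81 of 10980), without E8.5 (83 of 11129) and with the male share as a covariate (17 of 11690), and 0 to 9 leaving out samples. In gated cells at E8.0 no filter gave 14 (128 of 24000), with 0 to 4 leaving out samples. At E9.5 no filter gave 6 (567 of 24227) and gates of 2, 10 and 20 gave 0 (357 of 10788), 4 (365 of 9490) and 2 (228 of 9325), with 0 to 6.

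For stage in all cells, DESeq2 called 2 (4931 of 18063), run as a term 7 (3877 of 18063) and run 1 alone 13 (5222 of 17577), with 1 to 6 leaving out samples. Nebl turned to -0.77 with run as a term and to -0.78 in run 1 alone, where Tnnc1 was -0.67, Tpm1 -0.39 and Myl7 -0.52. The gated share by genotype was 2.94 points at a gate of 10 (exact permutation p = 0.0544) and 2.02 to 3.95 points with 1 sample left out. By stage it was -5.06 points at a gate of 2 (exact permutation p = 0.0319), -2.72 at a gate of 10 (p = 0.210), -1.58 at a gate of 20 (p = 0.393), -6.89 in run 1 alone (p = 0.01) and -4.69 to -3.13 with 1 sample left out. The genotype ratios passed for 0 to 3 pairs and the stage ratios for 4 to 5 with 1 sample left out. The causes were not tested. The fits with no filter on low counts also took in genes of few UMIs, and the part of these genes in the changed counts was not tested. Depth limits Myoz2 and Lmod2 most. No paired analysis was possible because barcode samples carry no numbers that pair genotypes or stages. Alternatives without E8.5, without small samples, with doublets left out of gated cells or with myogenic cells left out were chosen after seeing the data, as were run 1 alone for shares and ratios and the male covariate in gated cells.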
